A study of Homo sapiens with 6 samples.

Results

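The genes described here encode the WAVE regulatory complex, an assembly that switches on actin branching at the leading edge of cells, together with 2 partner proteins. They are 10 of the 58051 genes of the deposited expression table: WASF1, WASF2 and WASF3, the alternative WAVE proteins; ABI1, ABI2, CYFIP1, NCKAP1 and BRK1, further subunits of the complex; WASL, which encodes N-WASP; and BAIAP2, which encodes the adaptor IRSp53. They were taken by symbol around WASF3, and WASF3 was taken because it was much lower with mimic than with scramble. The set was thus chosen by the mimic and scramble values of WASF3, and the differences of its members between these groups are given as a description, without a p-value. All 10 had a mean of at least 0.5 FPKM (reads scaled to gene length and to the reads of the library) over the 6 libraries, and so passed the filter on low values.

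WAVE proteins are kept inactive inside the complex until the GTPase Rac binds its CYFIP subunit. The released end of the WAVE protein then binds an actin monomer and the Arp2/3 complex, which starts a new filament as a branch on an existing one. The branched network pushes out lamellipodia, and WASF3 is known in tumour cells mainly for its part in invasion and metastasis. N-WASP, which stands outside this complex, also acts on Arp2/3 and is switched on by the GTPase Cdc42.

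RNA was sequenced from cells labelled NT2 (NTera-2), a human embryonal carcinoma line, in 3 libraries from cells given mimics of the small RNA piR-36249 and 3 from cells given its scramble control. Mimics are named in titles and treatment labels, whereas the genotype label of these samples reads knockdown and that of the scramble samples control. Groups follow the titles, and every difference is mimic minus scramble. The labels give no time, dose or passage and do not say whether libraries came from separate cultures, so any spread and p-value cover only these samples and may be technical.

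Recovered depth was 48.0 to 62.7 M reads per library, at which 10 reads on 1 kb of exon are worth 0.159 to 0.208 FPKM. Of 12 markers of pluripotent cells, which an embryonal carcinoma line should express, 10 had a mean under 0.5 FPKM and 6 (NANOG, SOX2, TDGF1, SALL4, L1TD1 and UTF1) were listed at 0 in all libraries. The other 2 were PODXL (247 to 349 FPKM) and DNMT3B (2.82 to 5.24 FPKM). Both were tested and rose (limma, as below, adjusted p = 0.028 and 0.00037), beside 18.7% of all tested genes. Of 15 endothelial markers 11 were above 1 FPKM in all libraries. The summed level of the 15 was 1338 to 1442 FPKM with mimic and 1009 to 1105 with scramble. ENG (mean 645 FPKM with mimic, 435 with scramble) and EGFL7 (311 and 251) were its largest parts. Of the 11 tested, 8 rose (limma, as below), beside 18.7% of all tested genes. No endothelial marker was at 0 in all 6 libraries, although KDR did not exceed 0.040 FPKM and EMCN did not exceed 0.039. VWF did not exceed 0.525 FPKM and CLDN5 did not exceed 0.149. These levels go against the label of the cells, whose identity was not tested. Of 9 fibroblast markers 1, THY1, was above 1 FPKM in all libraries and it rose (log2 0.31, adjusted p = 0.0041); the summed level of the 9 was 6.77 to 7.31 FPKM with mimic and 4.78 to 5.11 with scramble. Of 10 blood markers none was above 1 FPKM in all libraries, and their sum was 0.462 to 0.741 FPKM with mimic and 0.516 to 0.759 with scramble. The part of these marker levels in the values below was not tested. In bulk RNA, fewer cells of a type and less RNA per cell cannot be told apart.

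The WASF genes are paralogs, so their coding sequences were compared to see whether reads could be assigned to the wrong gene. The longest run shared by any protein-coding transcripts of WASF3 and WASF1 was 16 bases, and it was 14 bases for WASF3 and WASF2 and for WASF1 and WASF2 (GENCODE 29). The aligned coding sequences were identical at 65.3% of bases for WASF3 and WASF1, 67.5% for WASF3 and WASF2 and 68.1% for WASF1 and WASF2. The runs are shown with their surroundings, because they mark the places where the paralogs are hardest to tell apart; capitals mark the shared run.
WASF3, coding bases 64 to 109: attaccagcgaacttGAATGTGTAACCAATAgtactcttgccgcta
WASF1, coding bases 64 to 109: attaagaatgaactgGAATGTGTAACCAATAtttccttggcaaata
WASF3, coding bases 1018 to 1061: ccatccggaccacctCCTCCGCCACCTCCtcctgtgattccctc
WASF2, coding bases 949 to 992: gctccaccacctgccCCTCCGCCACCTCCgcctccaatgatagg
The first pair stands at the same place near the start of both coding sequences. The second pair lies in a stretch that codes for the proline-rich part of the proteins.

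WASF3 (ENSG00000132970, chromosome 13, 26557703 to 26688948, plus strand, GRCh38) had the largest difference of the set. Its levels were 2.88, 3.20 and 2.78 FPKM in mimic replicates 1 to 3, and 9.95, 9.58 and 8.97 FPKM in scramble replicates 1 to 3. All mimic libraries were below all scramble libraries, with no value in between. The means were 2.95 ± 0.218 and 9.50 ± 0.496 FPKM (SD, n = 3 each), so the mimic level was 0.311 of the scramble level. These values rest on 688 to 892 recovered reads per mimic library and 2477 to 3222 per scramble library. On the log2(FPKM + 1) scale the difference was -1.41 (SE 0.0597), and 3 of the 12912 tested genes had a lower one. The added 1 shrinks the fold of a gene at this level: the authors' deposited table, made from counts, gives WASF3 a log2 fold change of -1.69 (SE 0.0792). It is the single member among the 401 genes (0.691% of the table's genes) of that list, whose entries are all at least 2-fold higher or at least 2-fold lower. By log2 fold change WASF3 has rank 28 from the lowest in that list. The list also holds genes under the filter on low values, so the places differ both in scale and in the genes compared.

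The promoter of WASF3 is shown because this gene carries the difference. It is the 250 bases before the first of its annotated starts in RefSeq, at chr13:26557433-26557682 on the plus strand of GRCh38.p14, with CG dinucleotides in capitals.
WASF3 promoter: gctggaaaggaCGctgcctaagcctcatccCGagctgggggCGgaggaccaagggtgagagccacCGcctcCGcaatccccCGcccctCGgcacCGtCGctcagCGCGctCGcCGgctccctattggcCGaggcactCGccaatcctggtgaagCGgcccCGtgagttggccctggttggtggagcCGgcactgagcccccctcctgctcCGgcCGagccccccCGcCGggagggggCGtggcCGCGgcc
It holds 25 CG dinucleotides, against a median of 11 over the 35116 promoters of the table, and 21.6% of them hold at least as many. Among other members, ABI2 had 42, WASL 37, NCKAP1 30, BRK1 24, ABI1 19 and WASF1 17. The promoters of BAIAP2 had 7 to 31 and those of CYFIP1 6 to 28. The count thus does not set WASF3 apart within the set. The pattern of a G-quadruplex, the DNA or RNA fold that DHX36 of the series title unwinds, was searched on both strands as 4 runs of at least 3 G with spacers of 1 to 7 bases. This window of WASF3 did not hold it, while 23.5% of all promoters did. WASF2 was not matched. The 9 members matched have 16 annotated promoters, of which 6 held the pattern, and these belong to NCKAP1, ABI2, WASL, CYFIP1 and BAIAP2. These are matches of letters and describe no binding.

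WASF1 and WASF2, the other WAVE proteins, were both higher with mimic. WASF2 (ENSG00000158195, chromosome 1), the widely expressed paralog, measured 52.4, 61.1 and 58.2 FPKM with mimic and 51.1, 50.1 and 46.8 FPKM with scramble. Its groups did not overlap, but mimic replicate 1 lay close to the highest scramble library. The difference was 0.21 on the log2 scale (SE 0.0624), a ratio of 1.16 in FPKM. WASF1 (ENSG00000112290, chromosome 6), best known from neurons, measured 13.5, 15.8 and 15.9 FPKM with mimic against 12.7, 12.7 and 12.6 FPKM with scramble. Its scramble libraries were nearly equal, and mimic replicate 1 was again the lowest of its group. The difference was 0.23 (SE 0.0619), a ratio of 1.19. Neither gene came near the size of the difference of WASF3.

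**Figure D1:**
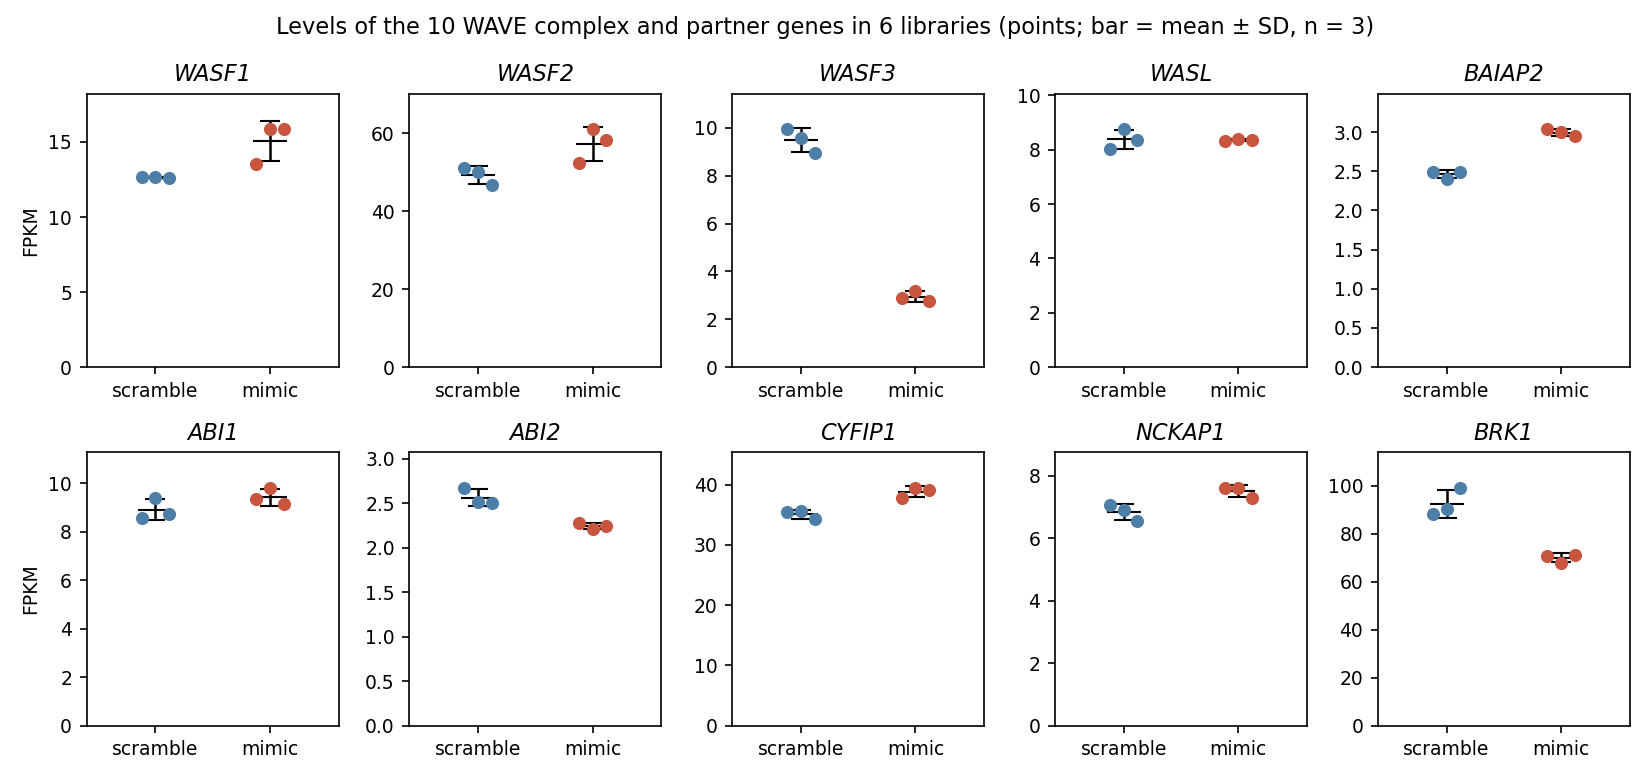
FPKM of each of the 10 genes (vertical axes from 0) in the 3 scramble (blue) and 3 mimic (red) libraries, with each point a library and black bars for mean ± SD. WASF3 stands at 2.78 to 3.20 FPKM with mimic and 8.97 to 9.95 with scramble, while most other genes differ far less.

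Because the values are per length, the 3 WASF genes can be added. The summed WASF level was 68.8, 80.1 and 76.8 FPKM with mimic and 73.7, 72.4 and 68.4 FPKM with scramble, and these ranges overlap. WASF3 made up 4.19, 3.99 and 3.61% of the sum with mimic and 13.5, 13.2 and 13.1% with scramble. WASF2 held 76.04 ± 0.251% with mimic and 69.0 ± 0.484% with scramble, and WASF1 held 20.03 ± 0.523% and 17.7 ± 0.65% (SD, n = 3). WASF2 was thus the main WAVE mRNA in all 6 libraries, and the sum with mimic was 1.05 times that with scramble.

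**Figure D2:**
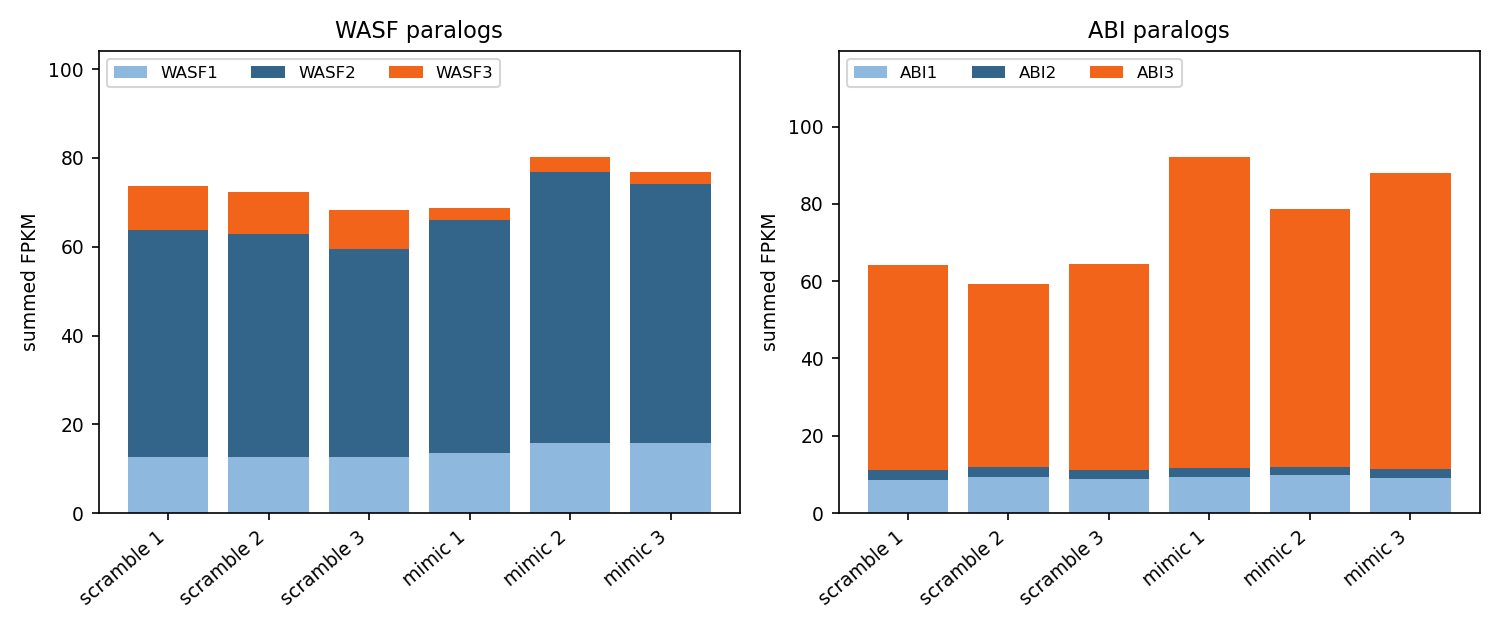
Summed FPKM of the WASF paralogs (left) and the ABI paralogs (right) in each library, stacked by gene. WASF3 shrinks from about 13% of the WASF sum with scramble to about 4% with mimic while the sum stays between 68.4 and 80.1 FPKM, and ABI3 makes up most of the ABI sum in every library.

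Among the other subunits, BRK1 (ENSG00000254999, chromosome 3), the smallest subunit, known as HSPC300, was lower with mimic. It measured 70.8, 67.8 and 71.2 FPKM with mimic and 88.1, 90.1 and 99.1 FPKM with scramble. The groups were well apart, and scramble replicate 3 was the highest. The difference was -0.40 on the log2 scale (SE 0.0512), and the mimic level was 0.756 of the scramble level. CYFIP1 (ENSG00000273749, chromosome 15), the subunit that Rac binds, was slightly higher, at 37.8, 39.5 and 39.1 FPKM against 35.5, 35.6 and 34.2 FPKM. Its groups did not overlap, and the difference was 0.14 (SE 0.0373). NCKAP1 (ENSG00000061676, chromosome 2), the large scaffold next to CYFIP1, measured 7.60, 7.62 and 7.28 FPKM with mimic and 7.05, 6.91 and 6.56 FPKM with scramble, a difference of 0.12 (SE 0.0455). Its groups did not overlap either, with a gap smaller than the range of either group.

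The ABI subunits link the WAVE protein to the rest of the complex. ABI1 (ENSG00000136754, chromosome 10) measured 9.35, 9.82 and 9.13 FPKM with mimic and 8.59, 9.40 and 8.73 FPKM with scramble. These groups overlapped, and the difference was 0.08 with a 95% interval of -0.04 to 0.19. ABI2 (ENSG00000138443, chromosome 2) was a little lower with mimic in all libraries, at 2.28, 2.21 and 2.25 FPKM against 2.68, 2.52 and 2.50 FPKM. Its difference was -0.14 (SE 0.0514). ABI2 shares 38.02% of its exon bases with RAPH1 on the opposite strand and CYFIP1 shares 12.8% with NIPA2. WASF3 shares 38.3% with the antisense gene AL159978.1. The use of strand in counting is not given in the sources used here, so reads of such partners could not be told apart.

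The partner genes went separate ways. WASL (ENSG00000106299, chromosome 7) measured 8.34, 8.39 and 8.34 FPKM with mimic and 8.03, 8.75 and 8.34 FPKM with scramble. Its mimic libraries lay inside the scramble range, and the 95% interval of the difference was -0.11 to 0.10 on the log2 scale. BAIAP2 (ENSG00000175866, chromosome 17), which bridges Rac and the WAVE complex at the membrane, measured 3.04, 2.996 and 2.95 FPKM with mimic against 2.50, 2.40 and 2.49 FPKM with scramble. Its groups were far apart for their spread, with a difference of 0.21 (SE 0.0485) and a ratio of 1.22.

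**Figure D3:**
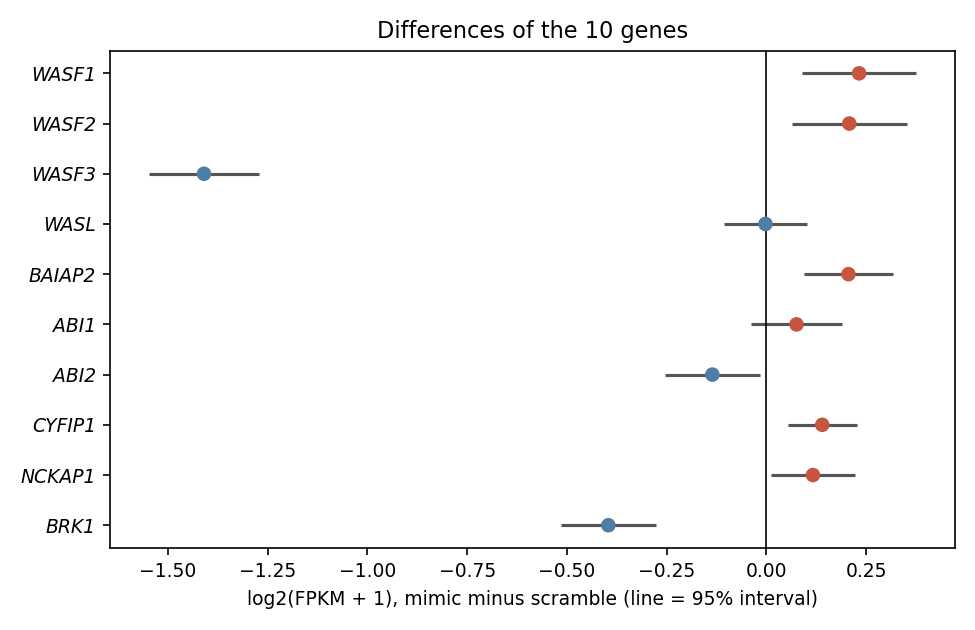
Difference of mean log2(FPKM + 1), mimic minus scramble, for each of the 10 genes (points, red above 0 and blue below), with lines for the 95% interval from the limma fit. WASF3 at -1.41 lies far to the left, BRK1 at -0.40 is next, and the other 8 lie between -0.14 and 0.23.

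The libraries of the groups did not overlap in 8 of the 10 genes, 5 with mimic above and 3 with mimic below, beside 49.2% of all tested genes (26.0% above and 23.2% below). In the limma fit across all genes 6 of the 10 were past the adjusted threshold of 0.05 (WASF1, WASF2, CYFIP1 and BAIAP2 higher, WASF3 and BRK1 lower), beside 35.5% of all tested genes. Since the same comparison chose the set, nothing is read from these counts. The number past the threshold was 3 without mimic replicate 2, mimic replicate 3, scramble replicate 1 or scramble replicate 3, when WASF1, WASF2 and CYFIP1 left it, and 4 without scramble replicate 2, when WASF1 and WASF2 left it. The median difference of the 10 was 0.10, and that of all tested genes was 0.0025.

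In order of level over all 6 libraries, BRK1 led with 81.2 ± 12.9 FPKM (SD over 6 libraries), followed by WASF2 (53.3), CYFIP1 (36.96), WASF1 (13.9), ABI1 (9.17), WASL (8.37), NCKAP1 (7.17), WASF3 (6.23), BAIAP2 (2.73) and ABI2 (2.41). The ranges over the libraries did not overlap between neighbours down to ABI1, nor between WASL and NCKAP1. They overlapped between ABI1 and WASL, although ABI1 was the higher in all 6 libraries, and between NCKAP1, WASF3, BAIAP2 and ABI2 in turn. WASF3 was above NCKAP1 in 3 libraries and above BAIAP2 in 4, so its place in the order differs between the groups. The order also rests on the gene lengths behind the FPKM, which count every annotated exon. That length was 22520 bases for NCKAP1, whose principal transcript is 4989 bases, and 10288 for BAIAP2, with a principal transcript of 1939. With reads divided by the principal transcript instead, NCKAP1 was 4th in the order (32.4 on this scale) and not 7th, BAIAP2 was 6th (14.5) and WASF3 was last (6.71). With scramble alone WASF3 was not last on this scale, at 10.2 against 9.23 for ABI2 and 8.38 for WASL. This length was tried after the values were seen, and it leaves the ratio of mimic to scramble FPKM of each gene as it is, but not the shares within a family.

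The complex has further paralogs that stand outside the 10 genes, and ABI3, an ABI protein best known from blood cells, was the most abundant of its family. Its level rose to 74.5 ± 7.13 FPKM with mimic from 51.1 ± 3.32 FPKM (SD, n = 3; log2 0.53, SE 0.0766, adjusted p = 0.0015). ABI3 held 81.6 ± 1.52% of the summed ABI level with scramble and 86.4 ± 1.46% with mimic, and 62.8% and 70.8% with principal transcript lengths. CYFIP2 measured 5.33 ± 0.286 with scramble and 5.04 ± 0.432 FPKM with mimic (log2 -0.07, adjusted p = 0.438), so that CYFIP1 held between 86.6 and 89.2% of the summed CYFIP FPKM. With principal transcript lengths the means over all libraries were 56.7 for CYFIP1 and 12.8 for CYFIP2, a smaller share for CYFIP1. NCKAP1L, the blood cell relative of NCKAP1, did not exceed 0.348 FPKM and was not tested. The blood markers summed to at most 0.759 FPKM in any library, and a part of blood cells in the level of ABI3 was not tested.

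Around the complex, 124 other genes of actin branching in 6 lists were looked at, of which 104 were tested. Of these 21 rose and 19 fell, beside 18.7% of all tested genes higher and 16.8% lower. The median of the 104 differences was 0.05 and their range was -0.48 to 0.57, so none of these came near the difference of WASF3. Of the list genes under the filter on low values, 2 stand in the authors' deposited list. These are FHOD3 (log2 fold change 1.81, SE 0.482) and CORO2A (1.37, SE 0.46), both higher with mimic. FHOD3 measured 0.0845 FPKM with mimic and 0.0242 with scramble, and CORO2A 0.124 and 0.0469. After rescaling to TPM 23 of the tested list genes rose and 13 fell. Without mimic replicate 1 the counts were 13 higher and 11 lower. The count of genes that fell was 8 without scramble replicate 1, 11 without mimic replicate 3 and 12 without scramble replicate 2.

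The Arp2/3 complex, on which the WAVE and WASP proteins act, was tested for all 10 of its genes. Of these 3 rose and 2 fell, beside 18.7% of all tested genes higher and 16.8% lower. ARPC1A and ARPC1B, the alternative forms of one subunit, both rose, from 105.5 ± 3.44 to 127.2 ± 0.806 FPKM (log2 0.27, adjusted p = 0.0014) and from 72.8 ± 1.3 to 89.9 ± 5.59 FPKM (log2 0.30, adjusted p = 0.0031). ARPC5 rose by 0.17 (adjusted p = 0.016), a call lost if mimic replicate 1, scramble replicate 1 or scramble replicate 2 was left out (highest adjusted p 0.065). ACTR3B, a relative of the core subunit ACTR3, fell from 2.23 ± 0.015 to 1.64 ± 0.193 FPKM (log2 -0.29, adjusted p = 0.012). ARPC3 fell by 0.14 (adjusted p = 0.047), a call lost without any single library (adjusted p up to 0.133). It was also lost without the filter on low values, without a trend in the variance and with the replicate number as a block (at most 0.111). The core subunits ACTR2 (-0.04, adjusted p = 0.545) and ACTR3 (0.06, adjusted p = 0.306) did not pass the test. The median of the list was 0.01. ARPC3, ACTR2 and ACTR3 were picked for mention after their values were seen.

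Among other nucleation-promoting factors and partners 3 of 15 tested genes rose and 2 fell, beside 18.7% and 16.8% of all tested genes. The median of the list was 0.12. Beside ABI3, this list includes the WASH complex, which branches actin on endosomes. WASHC1 fell from 3.37 ± 0.125 to 2.51 ± 0.157 FPKM (log2 -0.32, adjusted p = 0.0040), but the gene has near-identical copies and its value is uncertain. WASHC2C (0.18, adjusted p = 0.024) and WASHC5 (0.18, adjusted p = 0.030) rose. The call of WASHC2C, which has a close copy in WASHC2A, was lost if mimic replicate 1, mimic replicate 2, scramble replicate 1 or scramble replicate 3 was left out (highest adjusted p 0.079), and that of WASHC5 if any mimic library or scramble replicate 3 was (highest adjusted p 0.086). Both calls were also lost without the filter on low values (adjusted p 0.0503 for WASHC2C and 0.076 for WASHC5). The genes WAS, WIPF3, BAIAP2L2 and NCKAP1L were under that filter.

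Genes that act upstream of the WAVE and WASP proteins are given singly. RACGAP1, a GTPase-activating protein of dividing cells, fell from 30.1 ± 0.479 to 21.3 ± 0.964 FPKM (log2 -0.48, adjusted p = 0.00019). ARF6, a GTPase of membrane traffic, fell by 0.18 (adjusted p = 0.0098). DOCK6, an exchange factor for Rac and Cdc42, rose from 19.1 ± 0.531 to 22.96 ± 0.281 FPKM (log2 0.25, adjusted p = 0.0019), and ELMO2, a partner of DOCK proteins, rose by 0.28 (adjusted p = 0.0043). The direct activators were picked for mention after their values were seen. RAC1 measured 77.2 ± 4.7 FPKM with mimic and 80.3 ± 5.98 with scramble (adjusted p = 0.534). RAC2 rose from 74.3 ± 2.12 to 82.8 ± 3.16 FPKM (log2 0.15, adjusted p = 0.026), a call lost if any library other than mimic replicate 2 or scramble replicate 1 was left out (highest adjusted p 0.094), and without the filter on low values (0.065). CDC42 fell by 0.12 (adjusted p = 0.026). The call of CDC42 was lost without any single library other than scramble replicate 3 (highest adjusted p 0.089), after rescaling to TPM and without a trend in the variance (at most 0.091 in either).

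**Figure D4:**
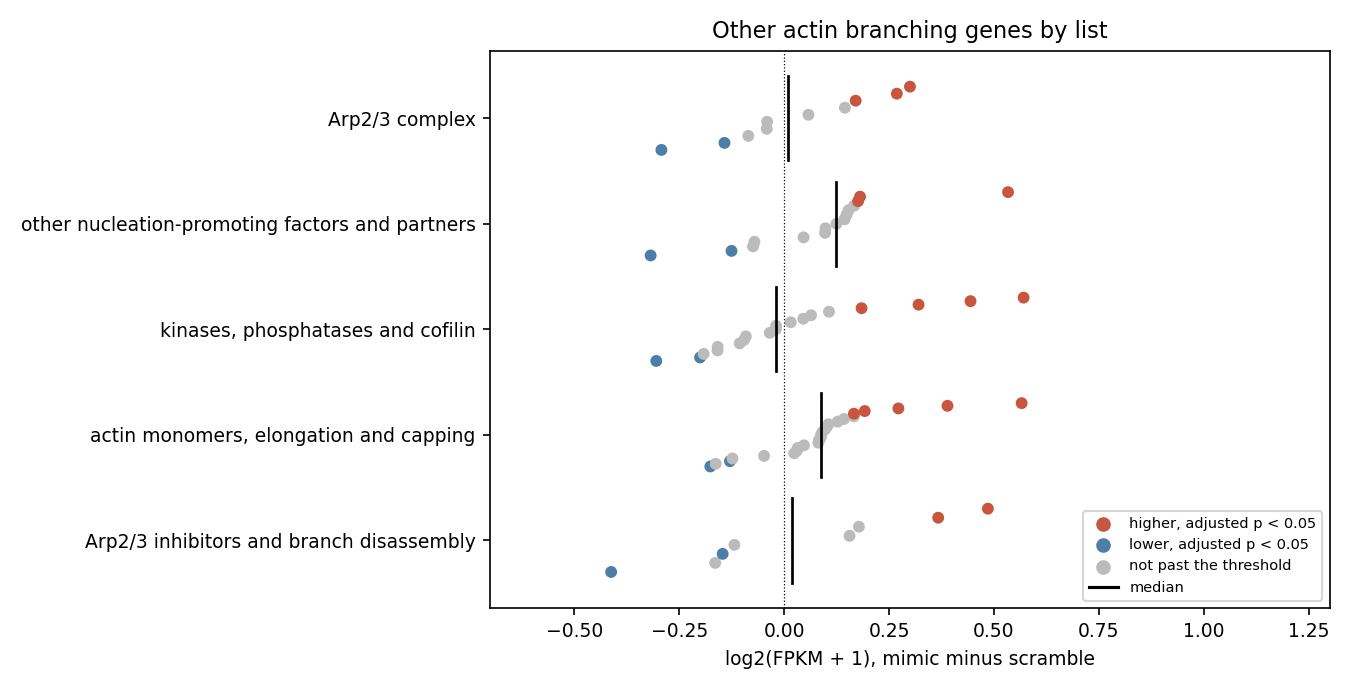
Difference of mean log2(FPKM + 1), mimic minus scramble, for the tested genes of 5 of the 6 lists; each point is a gene, red and blue mark genes higher and lower past the adjusted threshold, grey the others, and black bars the list medians. All points lie between -0.41 and 0.57, and the medians between -0.02 and 0.12.

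The list of kinases, phosphatases and cofilin is wider than the cofilin pathway, which turns filaments over. It had 4 of 19 tested genes higher and 2 lower, beside 18.7% and 16.8% of all tested genes, with a median of -0.02. DSTN, which encodes the cofilin relative destrin, rose from 90.8 ± 3.95 to 135.4 ± 8.33 FPKM (log2 0.57, adjusted p = 0.00025). The cofilin kinase TESK1 rose by 0.44 (adjusted p = 0.0014) and the cofilin kinase LIMK2 fell by 0.30 (adjusted p = 0.0033). The tyrosine phosphatase PTPN12 rose by 0.32 (adjusted p = 0.00073).

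Among genes of actin monomers, filament elongation and capping 5 of 25 tested rose and 2 fell, beside 18.7% and 16.8% of all tested genes. The median of the list was 0.09. The formins DAAM1 (log2 0.57, adjusted p = 0.00056) and FMNL3 (log2 0.39, adjusted p = 0.00075), which build unbranched filaments, rose. The former went from 2.24 ± 0.1 to 3.8 ± 0.327 FPKM and the latter from 9.44 ± 0.371 to 12.7 ± 0.516 FPKM. CARMIL1, a regulator of capping protein, rose by 0.27 (adjusted p = 0.018), a call lost if mimic replicate 2, mimic replicate 3 or scramble replicate 3 was left out (highest adjusted p 0.066). Without the filter on low values this call was lost too (0.075). CAP1, which recycles actin monomers, fell by 0.18 (adjusted p = 0.013, and 0.060 after quantile normalization).

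Of 8 tested genes that restrain Arp2/3 or take branches apart 2 rose and 2 fell, beside 18.7% and 16.8% of all tested genes. The median of the list was 0.02. The coronins went both ways: CORO1C fell from 55.9 ± 2.51 to 41.7 ± 0.911 FPKM (log2 -0.41, adjusted p = 0.00037) and CORO1A, best known from blood cells, rose from 1.254 ± 0.144 to 2.15 ± 0.116 FPKM (log2 0.49, adjusted p = 0.0014). CORO1B fell by 0.15 (adjusted p = 0.041), a call lost without any single library other than scramble replicate 2 (adjusted p up to 0.113). It was also lost without the filter on low values and without a trend in the variance (at most 0.097). The debranching factor GMFG rose by 0.37 (adjusted p = 0.016), a call lost if mimic replicate 1, mimic replicate 3 or scramble replicate 1 was left out (highest adjusted p 0.056). Without the filter on low values this call was lost too (0.071).

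The genes most like WASF3 over the 6 libraries were sought by the root mean square difference of their log2(FPKM + 1) profiles, each centred on its scramble mean. The 5 closest of all tested genes were ERP29 (0.0797), SLC25A5 (0.11), AATF (0.132), ELFN1-AS1 (0.132) and MEST (0.137), on chromosomes 12, X, 17, 7 and 7. Their mimic levels were 0.349, 0.386, 0.393, 0.281 and 0.278 of the scramble levels, beside 0.311 for WASF3. ERP29 encodes a chaperone of the endoplasmic reticulum, SLC25A5 the mitochondrial carrier of ADP and ATP, AATF a nucleolar protein and MEST an imprinted gene's product. None belongs to the actin lists, and the measure takes in the difference between the groups itself, so it carries no test.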

How the data were processed

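The authors deposited a table of FPKM for 58051 Ensembl genes in 6 libraries; the tools named are DESeq2 1.26.0, featureCounts 2.0.1, HISAT2 2.1.0 and Trimmomatic 0.39, and the build GRCh38, per the submitters' processing notes. How FPKM were calculated, the annotation and any use of strand were not given in the sources used here. A second table, the authors' deposited comparison of 401 genes, holds, per the file headers, mean normalized counts (a signal), log2 fold changes with SE, a test score and p-values; its log2 signs were those of mimic minus scramble FPKM in all 401, while its score had the opposite sign in all 401. The table held 0 columns of other samples. Names and positions came from GENCODE 29 (57447 identifiers matched). FPKM times union exon length gave whole reads for 95.7 to 96.0% of low values (within 0.02 reads), and for all 10 genes described here.

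Differences of log2(FPKM + 1) were tested with limma 3.58.1 in R 4.3.3 (eBayes, trend in the variance). Tested were 12912 genes whose mean over the libraries reached 0.5 FPKM, with p-values adjusted by Benjamini-Hochberg over all of them. The code was tested on simulated data. Genes named are the 10 members, the 4 genes with the smallest p in each list and the 5 most like WASF3; others are marked. Members and lists were chosen with earlier results of these data known. The counts of 1 of the 6 lists are not reported here by themselves, though its genes are in the total over all lists.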

Additional observations from a re-analysis of the deposited data

How the results depend on the processing

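The difference of WASF3 kept its direction under all alternatives run. It was -1.58 after rescaling to TPM, -1.70 by voom run on the recovered reads, and -1.65 and -1.68 when 0.1 and 0.01 were added in place of 1; it was -1.45 to -1.38 with 1 library left out. Genes past the threshold numbered 4584, 3374 to 4006 with 1 library left out and 3290 to 5059 under the other alternatives. The genes of the 6 lists that rose numbered 21, 13 without the filter on low values and 13 to 18 with 1 library left out; those that fell numbered 19, 11 without the filter and 8 to 19 with 1 library left out. Without the filter more genes share the adjustment, and leaving out a library leaves fewer samples. Members past the threshold numbered 6 (beside 35.5% of all tested genes), 3 to 6 with 1 library left out and 4 to 7 otherwise. The same comparison chose the set, so nothing is read from any count of members here. The deviations of same-numbered libraries of the groups had correlations of -0.062, 0.241 and 0.0541. Those of differently numbered libraries ranged from -0.274 to 0.230. So few libraries cannot settle whether the numbers pair them. With the replicate number as a block 4609 genes passed, as did 5 members. WASL, the member nearest to 0, ranged from -0.03 to 0.03; no other member changed sign.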

Other observations

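The surroundings of WASF3 on chromosome 13 were looked at after its values were seen. Of 40 annotated genes within 1000 kb on either side, 10 were tested, and none rose and 2 fell, beside 18.7% of all tested genes higher and 16.8% lower. These were GTF3A, a factor of 5S ribosomal RNA transcription (log2 -0.28, adjusted p = 0.0015), and RPL21, a ribosomal protein gene with many pseudogenes that can take its reads (log2 -0.27, adjusted p = 0.044). CDK8, the nearest tested gene at 152 kb, measured 4.53 ± 0.133 FPKM with mimic and 4.59 ± 0.379 with scramble. The differences of the 10 genes ranged from -0.28 to 0.14.

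The antisense gene WASF3-AS1 was listed at 0 in all 6 libraries. Another annotated antisense gene, AL159978.1, shares 38.3% of the exon bases of WASF3. It had no FPKM value and was not analysed here, so any reads from it could not be told apart from those of WASF3.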
